A study of Mus musculus with 12 samples.

Results

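The 10 genes described here encode the contractile apparatus of smooth muscle: Myh11, Myl9, Acta2, Actg2, Tpm2, Cnn1, Tagln, Smtn, Lmod1 and Des. They were chosen by name, with earlier results of these data known, and they are 10 of the 20718 genes measured. All 10 passed the filter on low counts and are among the 16296 genes tested. The data are RNA-seq libraries of whole testis from mice whose testes had been injected with lentivirus at 4 weeks of age and which were reared to 9 weeks before mating and collection. There were 12 libraries in 4 groups of 3. F0_5251KD carried shRNAs, in the LV3 vector, that target the long non-coding RNA lncRNA5251, and its control F0_3NC carried a negative control in the same vector. F0_5251OV carried lncRNA5251 for overexpression in the LV5 vector, and its control F0_5NC carried the empty LV5 vector. F0 is the injected generation, and all 4 groups received virus. The labels give the strain as IRC mouse (the study's methods write ICR), with Testis as the tissue. The level of lncRNA5251 itself was not analysed here. No label ties the 3 libraries in a group to different animals, so the p-values measure only the spread between these libraries, which may be technical. The vector backbone, and any batch that went with it, cannot be told apart in the comparison of F0_3NC with F0_5NC.

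Peritubular myoid cells are flat contractile cells that wrap each seminiferous tubule and move sperm and fluid along it. Their contraction follows the smooth muscle scheme, in which phosphorylated myosin slides along actin filaments and tropomyosin, calponin and related proteins set how readily the filaments interact. The serum response factor SRF, with myocardin and related cofactors, turns on these genes through a DNA element called the CArG box, and the same factor also drives immediate early genes such as Fos and Egr1. The smooth muscle of testicular blood vessels uses the same genes, so a whole-testis library sums both sources.

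The promoters in which a search found a CArG box are shown, since this element is the known route of SRF to contractile genes. RefSeq promoter sequences (GRCm38.p6) of 250 bases before to 50 bases after the start were at hand for 7 of the 10 genes. The consensus CArG box has 10 bases with 6 central A or T bases. It is its own reverse complement, so 1 search covers both strands. It was present in 1.63% of all 32851 promoters, and the consensus or a box with 1 central G or C was present in 9.98%. Among the 7 members with a promoter the consensus was found in 1 (Myl9), and either form in 2 (Myl9 and Acta2). Box positions are counted from the start used for the promoter sequences, which in Myl9 and Acta2 is not the first base of the annotated gene. In the Myl9 promoter the consensus box started 161 bases and the other box 99 bases upstream of that promoter start. The stretch shown, chr2:156775214-156775407 on the + strand, ends just before the annotated gene, so the promoter start lies beyond its end. In Acta2 both boxes held 1 central G or C and started 84 and 34 bases upstream of the promoter start. Both lie inside the annotated span of the gene, chr19:34240336-34255585. They are shown with 10 bases on each side, at chr19:34255438-34255467 and chr19:34255388-34255417 on the - strand, since the GENCODE annotation places a first exon over them. The capitals mark the boxes.
Myl9: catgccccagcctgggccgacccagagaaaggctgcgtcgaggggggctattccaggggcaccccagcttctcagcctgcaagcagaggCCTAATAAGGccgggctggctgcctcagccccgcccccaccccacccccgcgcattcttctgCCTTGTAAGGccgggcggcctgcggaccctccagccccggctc
Acta2, outer box: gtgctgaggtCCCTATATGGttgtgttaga
Acta2, inner box: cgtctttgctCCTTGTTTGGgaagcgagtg
In the promoters of Cnn1, Des, Lmod1, Smtn and Tpm2 neither form was found in this window.

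The level of a gene per length is given in FPKM, the authors' length-scaled value, and the level between libraries in CPM, the TMM-scaled count relative to the library total. Per length, Actg2 stood far above the other members, with a mean of 215 FPKM over the 12 libraries (185 to 238 FPKM). Myl9 followed at 35.8 FPKM (29.2 to 51.8 FPKM), and its range did not meet that of Acta2 at 16.3 FPKM (10.99 to 20.9 FPKM). Below these, neighbours in the order overlapped in range, except Myh11 and Cnn1. Tagln was at 8.98 FPKM, Tpm2 at 5.49 FPKM, Myh11 at 5.28 FPKM, Cnn1 at 2.36 FPKM, Smtn at 2.197 FPKM, Des at 1.47 FPKM and Lmod1 at 1.10 FPKM. Among the genes tested, the mean FPKM of Actg2 was at the 97.1 percentile and that of Lmod1 at the 19.5 percentile. Together the members took 0.0350% to 0.0414% of the counts of a library.

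The cell type behind the label was checked with marker lists. All 12 other markers of peritubular myoid cells were above 0 in every library, and their summed level was between 45.5 and 68.2 FPKM, but Dcn, which other fibroblast-like cells also express, made up 21.8 to 35.5 FPKM of it. The 10 markers of pericytes and vascular smooth muscle were also above 0 in every library, with a sum of 25.7 to 43.3 FPKM, of which Ndufa4l2 made up 16.3 to 34.1 FPKM. The skeletal muscle list summed to 4.78 to 7.69 FPKM, to which Actn3 gave 1.12 to 3.05 FPKM, Tnnc2 0.68 to 2.17 FPKM and Mylpf 1.12 to 1.96 FPKM, levels like those of Des and Lmod1. Of its other genes Ckm was at 0.25 to 0.74 FPKM and Myh4 at 0.01 to 0.09 FPKM, and 5 genes (Acta1, Mb, Pvalb, Tnni2 and Tnnt3) were listed at 0 in at least 1 library. Markers of both smooth muscle sources were thus present, and the level of a contractile gene cannot be divided between these and other cells. Germ cells make up most of a testis, and whether they contribute to a member such as Actg2 was not tested. In bulk tissue, fewer cells of a type and less RNA per cell also cannot be told apart.

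The depth was nearly equal, with 15431383 to 16355720 estimated counts per library. For 6 of the 10 members the highest of all 12 libraries was F0_5NC replicate 1, and this library also had the highest TMM factor, 1.078, and the highest summed Sertoli cell (1170 FPKM) and Leydig cell (4504 FPKM) markers. The sums of other peritubular myoid markers (68.2 FPKM), endothelium (17.3 FPKM) and macrophages (120 FPKM) were also highest in F0_5NC replicate 1. Its pericyte and vascular smooth muscle sum (36.5 FPKM) was not the highest, and its adipocyte (16.3 FPKM) and epididymis (255 FPKM) sums were the lowest. This library stands apart from the rest. Values without it are given for all members under overexpression and for some members between the controls. For the difference of effects, which also uses it, only a count of members is given without it. Among the 3 lowest libraries of each member, F0_5251OV replicate 1 appeared for 8 members, F0_5251OV replicate 3 for 7 and F0_3NC replicate 2 for 6.

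**Figure D1:**
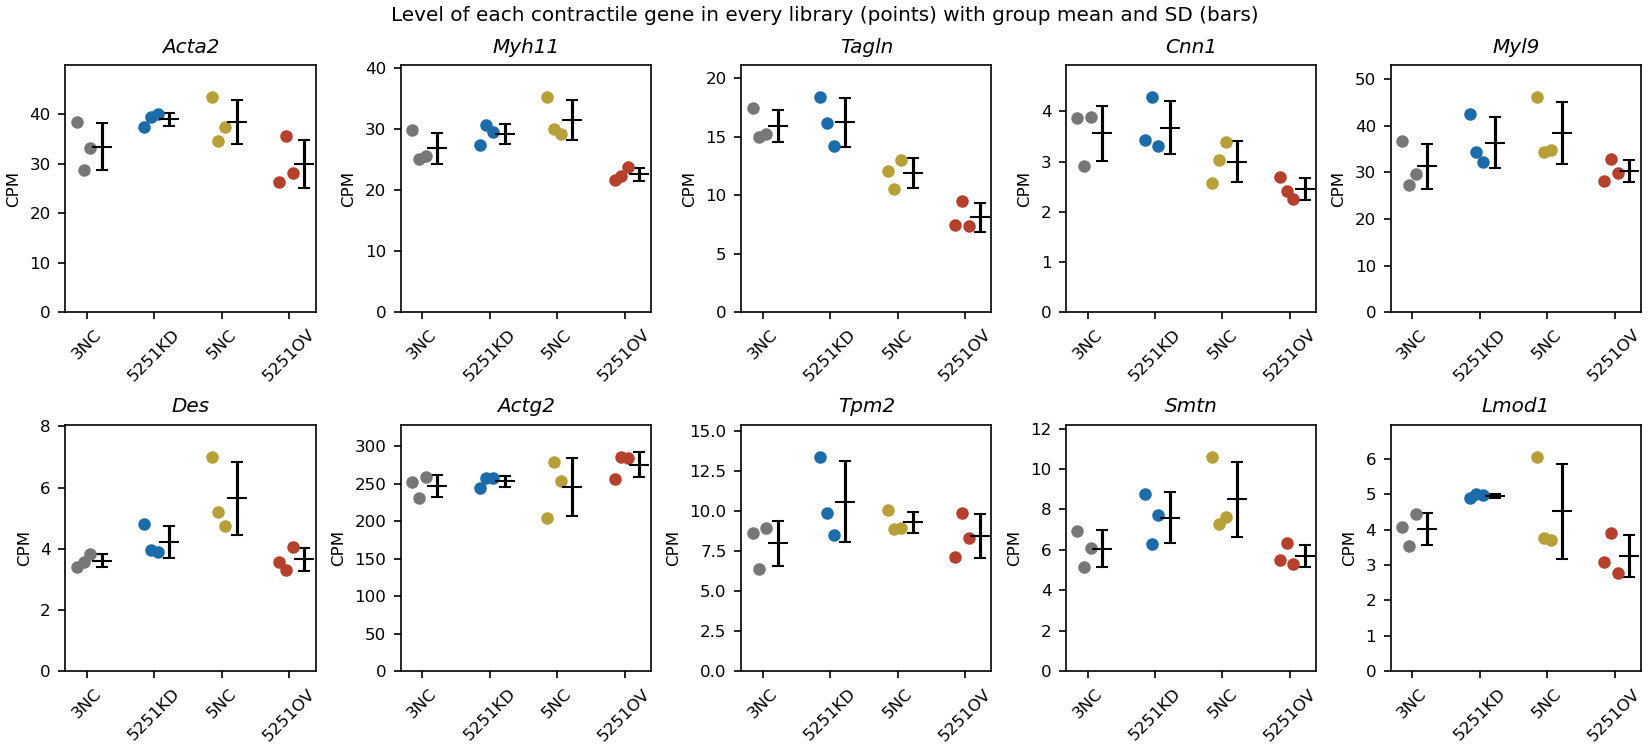
The panels show the level of each contractile gene in CPM (vertical axes, starting at 0) in the 4 groups (horizontal axes, with the F0_ prefix left off). Points are single libraries in the order of their replicate number, and bars give the group mean and SD (n = 3). The 3 F0_5251OV libraries of Myh11 lie at 21.7 to 23.7 CPM, below all 9 others, and those of Tagln at 7.37 to 9.53 CPM, also below all 9 others.

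Overexpression of lncRNA5251 was compared with its vector control for the contractile genes. In F0_5251OV, 9 of the 10 members had lower levels than in F0_5NC, with a median log2 fold change of -0.42 (all genes tested, -0.0020). None passed the adjusted threshold in edgeR, and neither did any other gene (0% of the genes tested). At an unadjusted p under 0.05, 7 members were lower, where 4.8% of all genes were lower at that limit. For 5 members (Myh11, Tagln, Myl9, Des and Smtn) every F0_5251OV library was below every F0_5NC library, which held for 6.57% of all genes. DESeq2 called 1 member, Myh11, and limma on log2(FPKM + 1) called 0. The count of 7 fell to 3 without F0_5NC replicate 1 and to 4 without F0_5251OV replicate 1 or without F0_5251OV replicate 3, while the median stayed between -0.49 and -0.32 when each library was left out. Without F0_5NC replicate 1 the log2 fold changes were -0.543 for Tagln, -0.445 for Des, -0.394 for Myh11, -0.388 for Cnn1, -0.382 for Smtn, -0.266 for Acta2, -0.201 for Lmod1, -0.20 for Myl9, -0.0807 for Tpm2 and 0.0463 for Actg2. Tagln changed little, and the values of Smtn, Myl9, Lmod1, Tpm2 and Actg2 moved toward 0 by more than 1.5 times.

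Myosin is the motor. Myh11, the smooth muscle myosin heavy chain, measured 35.2, 30.1 and 29.2 CPM in F0_5NC replicates 1 to 3 and 21.7, 22.4 and 23.7 CPM in F0_5251OV. The groups did not overlap, and the spread within F0_5251OV was small (SD 1.03 CPM, n = 3). The log2 fold change was -0.48 (SE 0.103, 95% interval -0.70 to -0.26), or 0.717-fold. Its adjusted p was 0.397 in edgeR and 0.0264 in DESeq2, and the gene ranked 17 of 16296 by unadjusted p in edgeR. Over all alternatives its log2 fold change stayed between -0.53 and -0.39 and its adjusted p between 0.0264 and 0.987. Myl9, the regulatory light chain whose phosphorylation starts contraction, measured 46.0, 34.4 and 34.9 CPM in F0_5NC and 28.1, 32.8 and 29.8 CPM in F0_5251OV. The nearest libraries of the groups were close, at 34.4 and 32.8 CPM, and the log2 fold change was -0.35 (SE 0.146, edgeR adjusted p = 0.552).

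Actin forms the thin filament. Acta2, the alpha smooth muscle actin that is the usual marker of myoid cells, measured 43.4, 34.7 and 37.4 CPM in F0_5NC and 26.3, 35.5 and 28.2 CPM in F0_5251OV. Replicate 2 of F0_5251OV lay inside the control range, and the log2 fold change was -0.36 (SE 0.131, edgeR adjusted p = 0.552). Actg2, the gamma smooth muscle actin, was the exception, with 204, 279 and 253 CPM in F0_5NC and 256, 286 and 284 CPM in F0_5251OV. Its log2 fold change was 0.17 (SE 0.1, 95% interval -0.05 to 0.38, edgeR adjusted p = 0.63), and the groups overlapped. Actg2 was lowest in F0_5NC replicate 1, the library in which 6 other members and several somatic sums, among them those of Sertoli and Leydig cells, were highest. It was higher in F0_5251OV, as were 9 of 10 round spermatid genes (median 0.0802), and whether these are related was not tested. The cytoplasmic actins Actb and Actg1 had log2 fold changes of -0.0093 and -0.05, and the skeletal and cardiac actins Acta1 and Actc1 were too low to be tested.

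The thin filament is set by proteins that bind along it. Tagln (transgelin, an actin-bundling protein of smooth muscle) measured 12.1, 10.6 and 13.0 CPM in F0_5NC and 7.46, 9.53 and 7.37 CPM in F0_5251OV. The groups did not overlap, with a log2 fold change of -0.55 (SE 0.143, 95% interval -0.86 to -0.25, edgeR adjusted p = 0.495). Tagln is the least certain member, since its exons overlap those of Pcsk7 on the opposite strand, the libraries are not stated to keep strand, and its estimated counts were not whole in any of the 12 libraries. The value for Pcsk7 in the same comparison was -0.02 (SE 0.125). Smtn (smoothelin, a protein of fully contractile smooth muscle) measured 10.6, 7.27 and 7.61 CPM in F0_5NC and 5.52, 6.33 and 5.30 CPM in F0_5251OV, with a log2 fold change of -0.57 (SE 0.183, edgeR adjusted p = 0.536). Lmod1 (leiomodin, which nucleates actin filaments) measured 6.05, 3.77 and 3.71 CPM in F0_5NC and 3.07, 3.92 and 2.78 CPM in F0_5251OV. The groups overlapped, and the log2 fold change of -0.47 (SE 0.213, edgeR adjusted p = 0.562) was -0.20 without F0_5NC replicate 1. With all libraries, Cnn1 (calponin, an inhibitor of the myosin motor) and Tpm2 (beta tropomyosin) had the smallest differences among the 9 lower members. Their log2 fold changes were -0.29 (SE 0.199) and -0.14 (SE 0.187), and both overlapped between the groups. Without F0_5NC replicate 1 the value of Cnn1 was farther from 0, at -0.388.

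Des encodes desmin, the intermediate filament that ties the contractile units together. It measured 7.01, 5.22 and 4.73 CPM in F0_5NC and 3.57, 3.33 and 4.07 CPM in F0_5251OV. No library of one group reached the other, and its log2 fold change of -0.63 (SE 0.181, 95% interval -1.02 to -0.24) had an edgeR adjusted p of 0.511. It was the farthest from 0 among the members with all libraries, and Tagln was without F0_5NC replicate 1. Exons of Des and Smtn are also overlapped by genes on the opposite strand (Gm15179 for Des, Gm11946 and Gm11947 for Smtn).

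**Figure D2:**
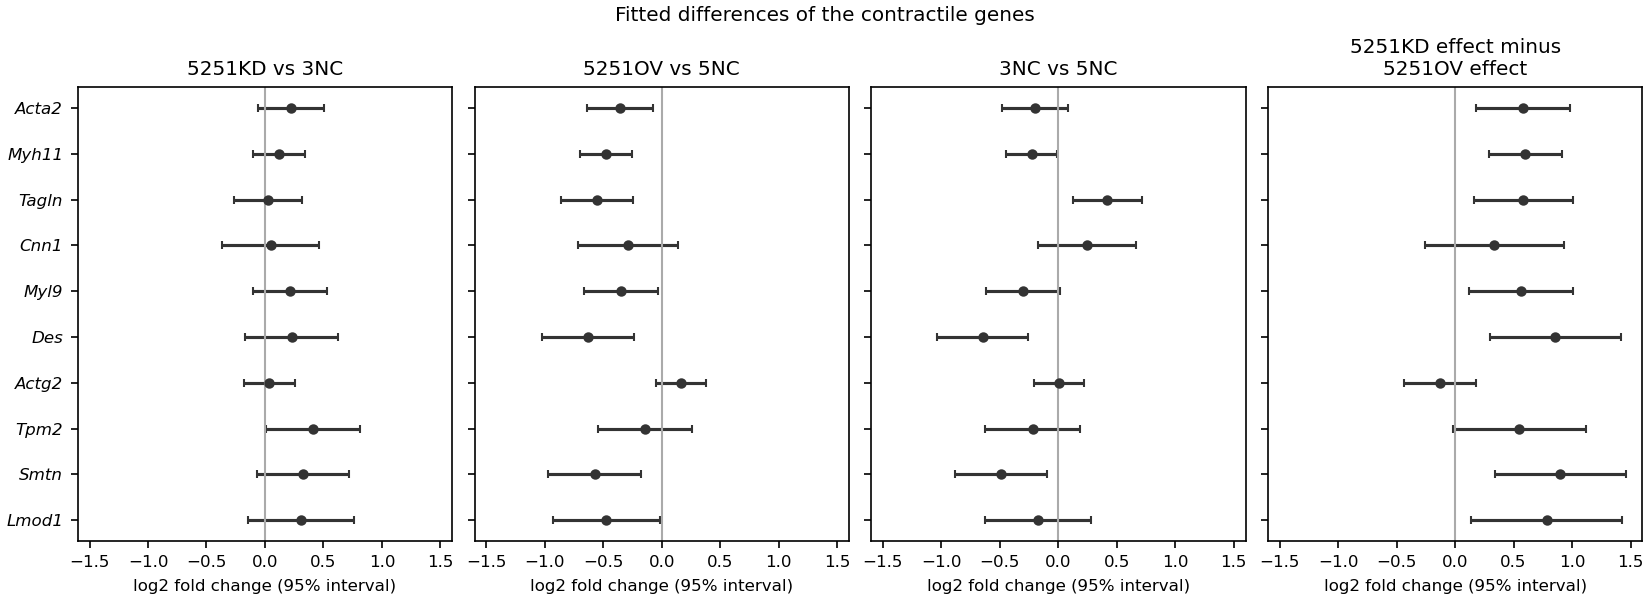
Each panel gives 1 comparison, with the fitted log2 fold change of each contractile gene (points) and its 95% interval (bars) on the horizontal axis. In the overexpression panel the intervals of 7 genes lie below 0 and that of Actg2 spans 0, from -0.05 to 0.38. In the knockdown panel the interval of Tpm2 alone lies above 0.

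Knockdown was compared with the LV3 control in the same way. In F0_5251KD all 10 members had higher means than in F0_3NC, by small amounts, from 0.03 (Tagln) to 0.41 (Tpm2) on the log2 scale, with a median of 0.22 (all genes tested, -0.0045). None passed the adjusted threshold in edgeR, which called 0.0245% of the genes tested, and none did in DESeq2 or limma. At an unadjusted p under 0.05, 1 member (Tpm2) was higher, against 2.34% of all genes. For 2 members (Des and Lmod1) every F0_5251KD library was above every F0_3NC library, against 5.52% of all genes. The median was 0.13 without F0_3NC replicate 2 and 0.14 without F0_5251KD replicate 1, and in both cases no member had an unadjusted p under 0.05. Without F0_3NC replicate 2 the log2 fold changes of Tagln, Cnn1 and Actg2 were below 0.

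Tpm2 measured 8.63, 6.39 and 8.98 CPM in F0_3NC and 13.4, 9.92 and 8.49 CPM in F0_5251KD. The third library of the knockdown lay within the control range, and the log2 fold change was 0.41 (SE 0.186, 95% interval 0.0069 to 0.81, edgeR adjusted p = 0.897). Lmod1 was nearly constant in F0_5251KD, at 4.89, 4.99 and 4.98 CPM, and all 3 lay above the F0_3NC values of 4.06, 3.53 and 4.43 CPM. Its log2 fold change was 0.31 (SE 0.209, edgeR adjusted p = 0.897). Des measured 3.42, 3.59 and 3.83 CPM in F0_3NC and 4.83, 3.95 and 3.90 CPM in F0_5251KD. The nearest libraries of the groups were close, and the log2 fold change was 0.23 (SE 0.185).

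The remaining members overlapped between knockdown and control. Smtn measured 6.96, 5.17 and 6.08 CPM in F0_3NC and 8.77, 6.29 and 7.73 CPM in F0_5251KD (log2 fold change 0.32, SE 0.184). For Acta2 the values were 38.3, 28.8 and 33.2 CPM in F0_3NC and 37.5, 39.4 and 40.0 CPM in F0_5251KD (log2 fold change 0.22, SE 0.131). F0_3NC replicate 2 was the lowest in both genes. Myl9 measured 36.7, 27.4 and 29.7 CPM in F0_3NC and 42.5, 34.2 and 32.1 CPM in F0_5251KD (log2 fold change 0.22, SE 0.146). The means of Myh11 were 26.9 ± 2.53 CPM in F0_3NC and 29.2 ± 1.66 CPM in F0_5251KD (SD, n = 3). Cnn1 had means of 3.56 ± 0.556 CPM and 3.68 ± 0.524 CPM, Tagln of 15.9 ± 1.35 CPM and 16.2 ± 2.09 CPM, and Actg2 of 247 ± 14.6 CPM and 253 ± 7.29 CPM (SD, n = 3 each). In Myh11, Cnn1, Tagln and Actg2 the F0_5251KD mean was within 1 F0_3NC SD of the F0_3NC mean.

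The vector controls were compared with each other as the background of the design. They share the F0_3NC libraries with the knockdown comparison and the F0_5NC libraries with the overexpression comparison, so the 3 sets of values are not independent. In F0_3NC, 7 members were lower and 3 higher than in F0_5NC, with a median log2 fold change of -0.21 (all genes tested, 0.00049). edgeR called no member here either, while it called 0.331% of the genes tested, and DESeq2 and limma called no member. At an unadjusted p under 0.05 there were 4 members (Des, Smtn and Myh11 lower, Tagln higher), against 11.9% of all genes in either direction. Of the members, 3 did not overlap between the controls (Des and Smtn lower, Tagln higher), against 17% of all genes. Without F0_5NC replicate 1, and likewise without F0_3NC replicate 2, the count of 4 was 2, and the median was -0.13 and -0.096, respectively.

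The values between the controls and under overexpression are set side by side, with the F0_5NC libraries shared. For Des the log2 fold change was -0.65 (SE 0.181) between F0_3NC and F0_5NC and -0.63 (SE 0.181) between F0_5251OV and F0_5NC. Smtn had -0.49 (SE 0.183) and -0.57 (SE 0.183) in the same 2 comparisons, and Myl9 had -0.30 (SE 0.146) and -0.35 (SE 0.146). These 3 genes were highest in F0_5NC replicate 1. Without it the 2 values were -0.466 and -0.445 for Des, -0.299 and -0.382 for Smtn, and -0.154 and -0.20 for Myl9. Myh11 had -0.23 (SE 0.102) between the controls and -0.48 (SE 0.103) under overexpression, and -0.147 and -0.394 without that library. Tagln was the member whose values had opposite signs and lay farthest apart, with 0.42 (SE 0.137, 95% interval 0.12 to 0.71) between the controls and -0.55 under overexpression. Its 6 libraries with the LV3 vector were at 14.2 to 18.4 CPM, its 3 F0_5NC libraries at 10.6 to 13.0 CPM and its 3 F0_5251OV libraries at 7.37 to 9.53 CPM, with no overlap between these 3 sets. Without F0_5NC replicate 1 the Tagln values were 0.425 and -0.543. Cnn1 was also higher in F0_3NC, by 0.25 (SE 0.194), and by 0.14 without that library. The value of Actg2 was 0.0068 (SE 0.1), and it had the opposite sign under other scalings.

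Whether knockdown and overexpression differed in their effect was tested directly, as the log2 fold change of F0_5251KD over F0_3NC minus that of F0_5251OV over F0_5NC. This difference was above 0 for 9 of 10 members, with a median of 0.58 (all genes tested, 0.0033). It ran from -0.13 for Actg2 to 0.90 for Smtn (SE 0.26), with 0.86 (SE 0.259) for Des, 0.78 (SE 0.299) for Lmod1 and 0.60 (SE 0.145) for Myh11. No gene passed the adjusted threshold in edgeR (0% of the genes tested), and the lowest adjusted p of a member was 0.352 (Myh11). An unadjusted p under 0.05 was reached by 7 members, against 5.23% of all genes in the higher direction, and by 5 without F0_5NC replicate 1. DESeq2 and limma called no member for this difference.

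**Figure D3:**
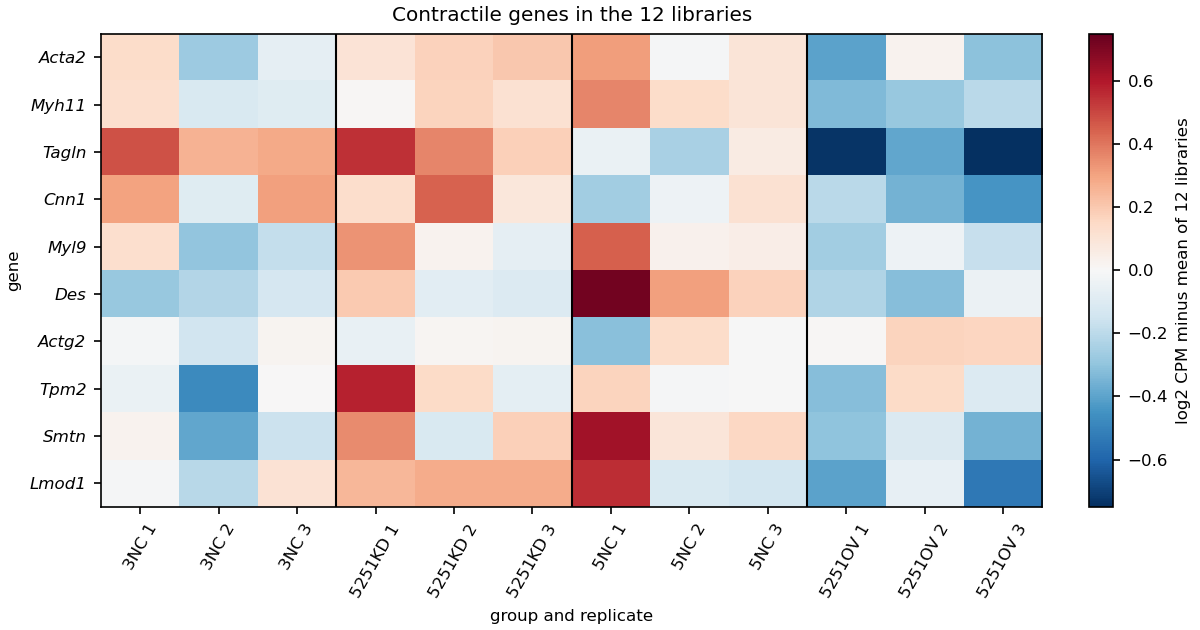
Colours give log2 CPM of each contractile gene (rows) in each library (columns) minus the mean of that gene over the 12 libraries, and black lines separate the groups. The F0_5251OV columns are mostly blue, F0_5NC replicate 1 is red for 7 genes, Tagln is red in the 6 libraries with the LV3 vector, and Actg2 is the palest row.

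The members differed in how far they followed one another. Averaged over the 10 genes, log2 CPM relative to each gene's own mean was highest in F0_5NC replicate 1 (0.26) and F0_5251KD replicate 1 (0.25) and lowest in F0_5251OV replicate 1 (-0.32) and replicate 3 (-0.28). All 3 F0_5251OV libraries (-0.32 to -0.12) lay below all 3 F0_5NC libraries (0.030 to 0.26) in this average. Knockdown and its control overlapped, with F0_5251KD replicate 3 at 0.0807 and F0_3NC replicate 1 at 0.0825. F0_5251OV replicate 2 (-0.12) lay above F0_3NC replicate 2 (-0.20), so the average did not divide all 4 groups. Acta2 lay nearest to the average profile, with a root mean square difference of 0.085 over the 12 libraries, followed by Myh11 (0.106) and Myl9 (0.112). Tagln (0.321) and Actg2 (0.266) lay farthest from it. From its lowest to its highest library Tagln spanned 1.3 on the log2 CPM scale and Actg2 only 0.484. The summed level of the 9 members other than Actg2 was 76.4 to 105 FPKM in F0_5NC, 60.6 to 71.6 FPKM in F0_5251OV, 67.5 to 84.6 FPKM in F0_3NC and 80.7 to 97.7 FPKM in F0_5251KD. With Actg2 included, the sum was 290 to 306 FPKM in F0_5NC and 279 to 309 FPKM in F0_5251OV, which overlapped. It was 265 to 295 FPKM in F0_3NC and 298 to 308 FPKM in F0_5251KD.

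Among 11706 other genes averaging 5 CPM or more, the 10 whose profile over the 12 libraries was most like the members' average were Adgrl1, Slc3a2, Slc41a1, Slc39a7, Mid1ip1, Dynlrb1, Zbtb7a, Daam2, Fasn and Scap. Their root mean square differences from it ran from 0.0628 (Adgrl1) to 0.0898 (Scap). These genes were picked for the likeness, so it is a description with no test.

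**Figure D4:**
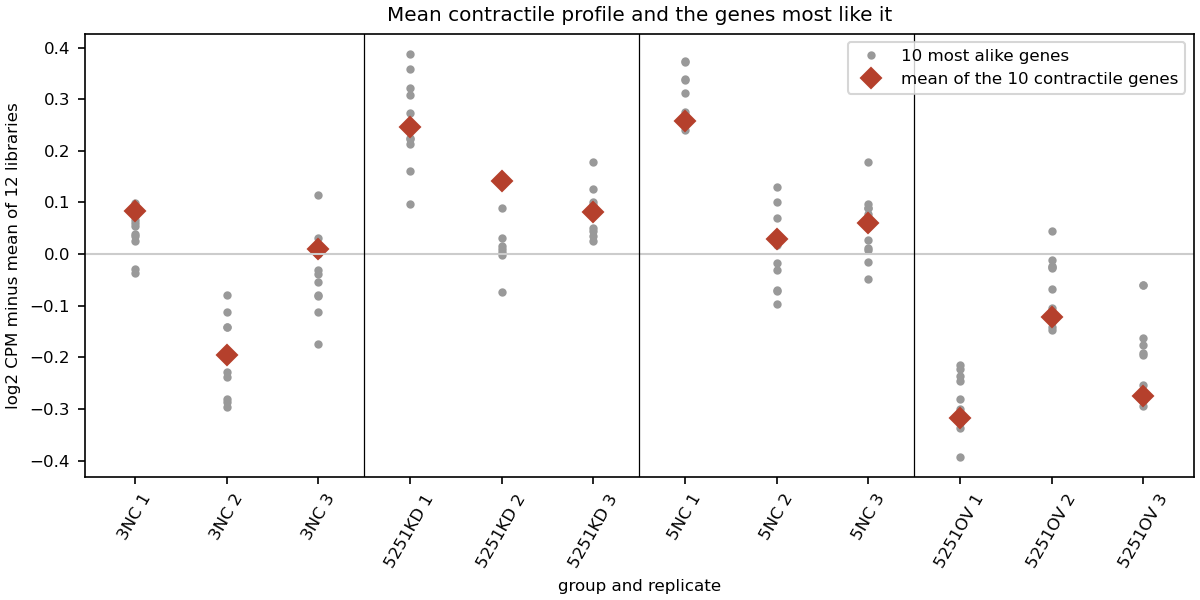
Red diamonds give the mean log2 CPM of the 10 contractile genes relative to each gene's own mean (vertical axis) in each library (horizontal axis), and grey points the 10 genes chosen for the most similar profile. The diamonds are at 0.26 in F0_5NC replicate 1 and at -0.32 in F0_5251OV replicate 1, and F0_3NC replicate 2 lies below F0_5251OV replicate 2.

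The genes that control or complete the contractile machinery were examined as 3 lists. Of 38 regulators and partners of contraction (kinases and phosphatases of the myosin light chain, other tropomyosins and calponins, actin linkers), 29 were lower and 9 higher in F0_5251OV than in F0_5NC, with a median log2 fold change of -0.15. None passed the adjusted threshold in edgeR in any of the 4 comparisons. Under overexpression 6 had an unadjusted p under 0.05, all lower (4.8% of all genes). The smallest p values were those of Flna (filamin A, an actin crosslinker), at -0.32 (SE 0.0942, edgeR adjusted p = 0.511), and Tpm3 (a non-muscle tropomyosin), at -0.36 (SE 0.108, edgeR adjusted p = 0.52). In the higher direction Ldb3 (a Z-disc protein) was at 0.32 (SE 0.313). In F0_5251KD against F0_3NC 21 were higher and 17 lower, with a median of 0.03, and 1, Actn1 (alpha-actinin), at 0.33 (SE 0.114), had an unadjusted p under 0.05 (2.34% of all genes). The next in the higher direction was Ppp1r14a, an inhibitor of myosin phosphatase, at 0.60 (SE 0.348), and those in the lower direction were Rock2, a kinase that keeps the light chain phosphorylated, at -0.32 (SE 0.18), and Cnn3 at -0.37 (SE 0.256). Between the controls 4 of 38 had an unadjusted p under 0.05, a share near the 11.9% of all genes, led by Cnn2 at 0.45 (SE 0.172) and Tpm4 at 0.47 (SE 0.193), and in the lower direction the first were Myl12b at -0.21 (SE 0.107) and Myl12a at -0.20 (SE 0.103). For the difference of effects 5 had an unadjusted p under 0.05 (5.23% of all genes), led by Flna at 0.33 (SE 0.133) and Ppp1r14a at 1.17 (SE 0.492), and in the lower direction Ppp1cb was at -0.38 (SE 0.223).

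SRF and its cofactors gave 7 genes that could be tested, and edgeR called none of them in any comparison. Srf itself was at 42.7 ± 9.76 CPM in F0_3NC, 49.9 ± 1.98 CPM in F0_5251KD, 47.1 ± 3.40 CPM in F0_5NC and 42.2 ± 9.17 CPM in F0_5251OV (SD, n = 3 each), differences within the spread of the libraries. In F0_5251OV against F0_5NC, 5 were lower and 2 higher. Myocd (myocardin, the smooth muscle cofactor of SRF) had a mean of 1.10 ± 0.489 CPM in F0_5NC and 0.622 ± 0.108 CPM in F0_5251OV (SD, n = 3 each), a log2 fold change of -0.82 (SE 0.358, edgeR adjusted p = 0.558), and Elk3 (a competing SRF partner) had -0.57 (SE 0.207, edgeR adjusted p = 0.552). In the higher direction were Elk4 at 0.16 (SE 0.223) and Mkl2 at 0.04 (SE 0.0755). At about 1 CPM, Myocd is measured with few counts. In F0_5251KD against F0_3NC the list had 4 higher and 3 lower, with Srf at 0.22 (SE 0.168), Mkl1 at 0.16 (SE 0.125), Myocd at -0.37 (SE 0.316) and Elk4 at -0.15 (SE 0.216). Between the controls Elk4 had 0.51 (SE 0.22), Myocd 0.54 (SE 0.32), Elk3 -0.36 (SE 0.204) and Mkl1 -0.14 (SE 0.125). For the difference of effects Elk1 had 0.50 (SE 0.296) and Srf 0.38 (SE 0.238), and Elk4 alone was below 0, at -0.31 (SE 0.31).

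Immediate early genes such as Fos and Egr1 are another class of SRF targets, but which genes of the list used here respond to SRF was not examined. Of the 19 immediate early genes listed, 17 were higher in F0_5251KD than in F0_3NC, and 4 rose past the edgeR adjusted threshold. These were Fos at 1.58 (SE 0.227, edgeR adjusted p = 0.0328), Btg2 at 1.37 (SE 0.153, edgeR adjusted p = 0.00856), Egr1 at 1.07 (SE 0.137, edgeR adjusted p = 0.0202) and Zfp36 at 0.91 (SE 0.122, edgeR adjusted p = 0.0223). They are all of the genes that edgeR called in that comparison, and all 10 contractile genes had an adjusted p of at least 0.897 there. The groups did not overlap in these genes, with Egr1 at 15.7 to 18.3 FPKM in F0_3NC and 31.2 to 40 FPKM in F0_5251KD, and Btg2 at 7.33 to 8.06 FPKM and 17.1 to 24.3 FPKM. With 1 library fewer, edgeR called 0 genes without F0_3NC replicate 1, without F0_3NC replicate 3 or without F0_5251KD replicate 3, and 1 without F0_5251KD replicate 1. Between the controls 9 of the 19 were past the edgeR adjusted threshold, all higher in F0_3NC, where 0.331% of all genes tested were called. They were led by Egr1 at 3.495 (SE 0.166, edgeR adjusted p = 2e-07), and the others were Btg2, Zfp36, Nr4a3, Ier3, Egr2, Fosl2, Junb and Fos, at 1.47 to 3.11. In F0_5251OV against F0_5NC 16 were lower and none passed, with Egr4 at -0.84 (SE 0.202) and Fos at -1.06 (SE 0.365), and in the higher direction Fosb at 0.45 (SE 0.277) and Egr3 at 0.11 (SE 0.134). For the difference of effects none passed, with Fos at 2.64 (SE 0.427) and Btg2 at 1.52 (SE 0.249), and Fosl1 alone was below 0, at -0.48 (SE 0.526). Whether the contractile and immediate early genes differed in response was not tested.

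Markers of other cells of the testis were set beside the contractile genes, since their share in a library can move together with them. In F0_5251OV against F0_5NC the median log2 fold change was -0.29 for 10 endothelial genes (9 lower), -0.29 for 12 Sertoli cell genes (12 lower), -0.22 for 8 Leydig cell genes (8 lower), -0.38 for 10 macrophage genes (9 lower) and -1.06 for 7 adipocyte genes (6 lower). For 10 round spermatid genes it was 0.0802 (9 higher). The 12 other peritubular myoid markers had a median of -0.18 (9 lower) and the 9 pericyte and vascular smooth muscle genes that could be tested one of -0.14 (7 lower). The contractile genes thus lay lower in F0_5251OV together with most somatic lists, and the part of these lists in the result was not tested. In F0_5251KD against F0_3NC the medians were 0.25 for endothelium (10 higher), 0.23 for Leydig cells (6 of 8 higher), 0.13 for Sertoli cells (8 of 12 higher), 0.0781 for macrophages (7 of 10 higher), 0.85 for adipocytes (5 of 7 higher), 0.0790 for other myoid markers (10 of 12 higher), 0.0989 for pericytes (7 of 9 higher) and 0.0158 for round spermatids. No gene of these cell type lists passed the adjusted threshold in edgeR in these 2 comparisons.

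The lists were also summed in each library. The Sertoli cell sum was 732 to 1170 FPKM in F0_5NC, 613 to 709 FPKM in F0_5251OV, 595 to 751 FPKM in F0_3NC and 685 to 783 FPKM in F0_5251KD. The endothelial sum was 14.9 to 17.3 FPKM in F0_5NC, 12.6 to 13.6 FPKM in F0_5251OV, 13.0 to 13.6 FPKM in F0_3NC and 14.3 to 16.6 FPKM in F0_5251KD. The vascular smooth muscle sum was 35.7 to 37.6 FPKM in F0_5NC and 27.6 to 43.3 FPKM in F0_5251OV, with overlap. The sum of the other peritubular myoid markers also overlapped, at 48.3 to 68.2 FPKM in F0_5NC and 45.5 to 56.65 FPKM in F0_5251OV. So did the Leydig cell sum in these groups, at 2176 to 4504 FPKM and 1773 to 2561 FPKM. The macrophage sum was 70.8 to 120 FPKM and 66.3 to 71.4 FPKM, again with overlap. The adipocyte sum was 16.3 to 42.1 FPKM and 16.8 to 21.0 FPKM, with overlap too. Epididymis, which has its own smooth muscle, was looked for with a list of genes, among them Crisp1, an epididymal secretory gene. Crisp1 was at 8.17 to 71.2 FPKM in F0_5NC, 0.15 to 50.03 FPKM in F0_5251OV, 0.25 to 4.55 FPKM in F0_3NC and 0.05 to 0.1 FPKM in F0_5251KD, so libraries within a group differed in it. Other genes of the list did not all follow Crisp1. Cst8 was at 234 to 338 FPKM in F0_5NC and 284 to 319 FPKM in F0_5251KD. In F0_5NC, Gpx5 was at 0 to 0.04 FPKM, Lcn9 at 0 to 0.19 FPKM and Crisp4 at 0 to 0.31 FPKM. Of the 12 epididymal genes measured, 7 could be tested, with medians of -0.31 in the overexpression comparison (4 lower, 3 higher) and -0.52 in the knockdown comparison (4 lower, 3 higher). Between the controls 5 of the 7 were lower in F0_3NC, and Spink8 fell past the threshold, by 3.79 on the log2 scale (SE 0.651, edgeR adjusted p = 0.0235), with Crisp1 at -4.71 (SE 1.22) and Adam7 at -7.27 (SE 1.78). Ros1 was at -0.48 (SE 0.332), Rnase10 at -0.14 (SE 0.333), Cst8 at 0.07 (SE 0.138) and Defb30 at 0.27 (SE 0.362). In the same comparison 12 of 12 Sertoli cell genes were lower (median -0.26), as were 9 of 10 endothelial genes (median -0.14). Of the other peritubular myoid markers 10 of 12 were lower (median -0.163), and of the pericyte and vascular smooth muscle genes 6 of 9 (median -0.145). Lower genes numbered 7 of 10 for macrophages (median -0.285), 5 of 8 for Leydig cells (median -0.0808) and 4 of 10 for round spermatids (median 0.0301). An unadjusted p under 0.05 in edgeR was reached by 6 of the Sertoli cell genes, all lower. Of the other myoid markers 3 were lower and 1 higher at that limit. Of all 16296 genes tested, 891 were lower and 1045 higher there. The part of epididymal, Sertoli cell, endothelial and other somatic RNA in the contractile values was not tested.

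**Figure D5:**
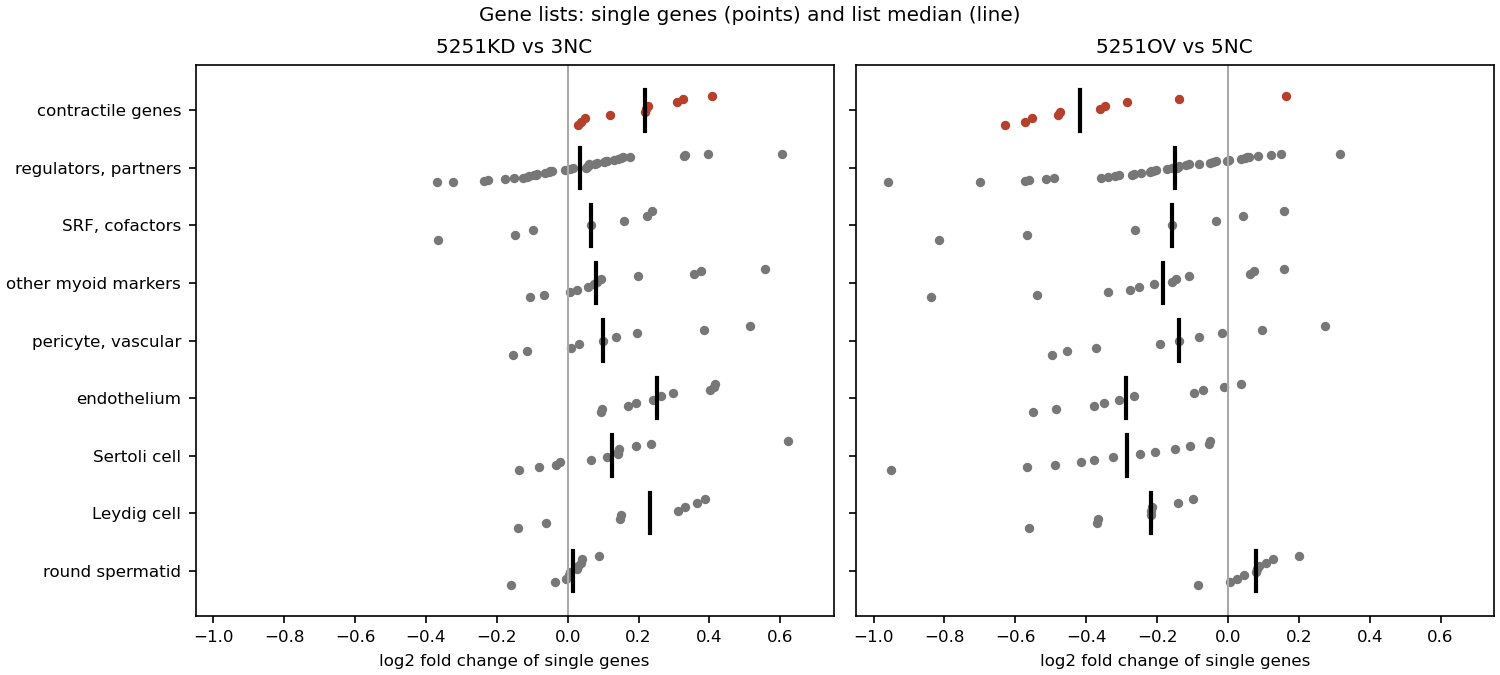
Points are the log2 fold changes of single genes (horizontal axis) in lists (rows) for the 2 treatments, and black lines are list medians, with the contractile genes in red. In the overexpression panel the contractile median is at -0.42, with endothelium and Sertoli cells at -0.29 and round spermatids at 0.0802, and in the knockdown panel the contractile median is at 0.22.

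Of the members, Acta2 lies at chr19:34240336-34255585 (9 exons), Myh11 at chr16:14194527-14292188 (42 exons), Tagln at chr9:45929628-45936058, Des at chr1:75360292-75368579 and Smtn at chr11:3517522-3539292 (GRCm38.p6). They are spread over 8 chromosomes, with Tagln and Cnn1 both on chromosome 9 and Des and Lmod1 both on chromosome 1. Stretches of 50 bases shared with other genes made up 0.352% of the transcript of Acta2 and 0.406% of that of Myh11 (shared with Myh9 and Myh10), and 0% of the other 8. Only exact matches between transcripts on their own strand were searched. The search thus does not cover genes on the opposite strand, such as Pcsk7 at Tagln, or reads aligned with mismatches. The estimated counts of Tagln were not whole in any of the 12 libraries.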

How the data were processed

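Mouse testis RNA was sequenced in 12 libraries. Per the study's methods, oligo(dT) selected the messenger RNA, cDNA was primed with random hexamers and SOAPaligner aligned the reads. The labels give the build mm10. No source used here names the counting tool. For each gene the authors deposited estimated counts and FPKM values (scaled by length and library total). Of the deposited estimated counts 12% were not whole (tolerance 1e-06), and they were rounded. Another 18 columns of per-sample values matched no sample and were not used.

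The main test was that of edgeR 4.0.16, run in R 4.3.3 (TMM, filterByExpr, two-sided quasi-likelihood F test) in 1 fit of 12 libraries and 4 groups with 8 residual degrees of freedom. P-values were adjusted by Benjamini-Hochberg over 16296 genes, with a threshold of 0.05. The study's methods name DEGseq, whose random sampling model does not use the spread among replicates. CPM values use TMM sizes, and log2 CPM a prior count of 2. The totals of 15431383 to 16355720 estimated counts leave Des, Cnn1 and Lmod1 at a few CPM, where counting error is largest. The members and lists were chosen with earlier results of these data known. All members are named, with genes of the contraction, SRF, actin and immediate early lists past the threshold (otherwise the 2 smallest unadjusted p-values in each direction) and the 10 genes most like the members. Of the genes so chosen, 1 is not reported here. The cell type genes named and the genes that overlap members were chosen after their values were seen. Alternatives were RLE and library-total scaling, no filter, DESeq2 1.42.0, limma 3.58.1 on log2(FPKM + 1), the compared groups alone, a replicate block and leaving out each library. Counts of members at an unadjusted p under 0.05 were added after seeing the data.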

Additional observations from a re-analysis of the deposited data

How the results depend on the processing

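The direction of the members' median held in all 4 comparisons under every alternative run. Of the alternatives for single members, 129 of 130 in F0_5251OV against F0_5NC, 124 of 130 in F0_5251KD against F0_3NC, 120 of 130 between the controls and 179 of 180 for the difference of effects kept both direction and side of the threshold. The exception under overexpression was Myh11, called by DESeq2, so that 1 member was called there.

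Genes called in F0_5251KD against F0_3NC numbered 4 in edgeR, 20 in DESeq2, 2 in limma, 2 with the replicate block and 0 to 4 without single libraries. In F0_5251OV against F0_5NC they numbered 0 in edgeR, 3 without a filter, 29 in DESeq2, 3 with the compared groups alone and 0 to 1 without single libraries. Between the controls they numbered 54 in edgeR, 131 in DESeq2 and 30 to 54 without single libraries. For the difference of effects they numbered 0 in edgeR, 34 in DESeq2, 1 in limma and 0 to 1 without single libraries.

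Members at an unadjusted p under 0.05 in the knockdown comparison numbered 1, but 2 in limma, 0 with the compared groups alone, 0 with the replicate block and 0 to 2 without single libraries. Under overexpression they numbered 7, and 3 to 8 without single libraries, and between the controls 4, and 2 to 6.

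Between the controls Actg2 had a log2 fold change of 0.0068, but -0.00207 with RLE scaling, -0.0272 with library totals, -0.00204 without a filter, -0.00157 in DESeq2, -0.00969 in limma, -0.00533 with the compared groups alone and -0.114 to 0.108 without single libraries, so its direction there is not set. Leaving out single libraries gave -0.295 to 0.0931 for Lmod1 between the controls, -0.0721 to 0.115 for Tagln, -0.078 to 0.118 for Cnn1 and -0.00974 to 0.0718 for Actg2 in the knockdown comparison, and -0.229 to 0.000662 for Actg2 in the difference of effects. The cause of these changes was not tested.

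Replicate numbers did not pair the samples. The correlations of deviations between libraries of the same number were 0.0654, -0.000209 and -0.00538 for F0_5251KD with F0_3NC, and -0.083, -0.0549 and -0.173 for F0_5251OV with F0_5NC. With the replicate block no member was called, the median was -0.41 under overexpression, and no other call of a member changed.

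With 3 libraries a group, changes under 2-fold in genes of a few CPM are poorly resolved, and the lists cannot separate the sources of smooth muscle RNA.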
